A study of Mus musculus with 16 samples.

Results

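Break regions private to 1 library were taken from 6 END-seq peak lists of mouse cardiac myocytes, 3 from Lmna knockout mice and 3 from wild-type mice. Peaks of the 6 lists on chromosomes 1 to 19 (build mm10) that overlapped by 1 bp or more were merged into 43619 regions. Members were chosen by the number of lists with a called peak: a region was private when exactly 1 list had a peak in it, and recurrent when 2 or more lists did. There were 24933 private regions, 57.2% of all regions, and 18686 recurrent ones. Lists of cKO mice held 19065 of the private regions and lists of WT mice held 5868. As a share of its list, private regions averaged 27.6% over the cKO lists and 27.5% over the WT lists.

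The knockout mice carried Myh6-Cre:LmnaF/F (cKO below): Cre driven by the promoter of Myh6, a myosin heavy chain gene of heart muscle, deletes loxP-flanked Lmna, the gene of lamins A and C, in myocytes. The WT mice are labelled as wild type. Myocytes of both groups were isolated by Langendorff perfusion, in which enzymes are passed through the heart's own vessels. No group carried Cre with intact Lmna, so effects of Cre and of the deletion cannot be told apart. The labels used here give no age or sex. END-seq libraries make up 6 of the 16 in the series, each from 1 mouse, and the 10 lamin A and IgG libraries were not used here. Peaks show where DNA broke, not which genes were expressed, so the myocyte label and the loss of Lmna were not tested with these lists.

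The list labelled cKO 1 has peak names that begin with WT-4, as does the list labelled WT 3. It keeps the name cKO 1, as labelled, and results are also given without it. Where 3 values are given for the cKO lists or for the WT lists, they stand in the order of the replicate numbers 1, 2 and 3. No peak of the 6 lists had the same ends and the same fold in another list.

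A double-strand break cuts both strands of the DNA helix and is rejoined by end joining or, in dividing cells, by recombination with a sister copy. END-seq ligates an adapter to the exposed ends and sequences from there, so reads pile up at the positions where ends were present when the nuclei were processed. A break that forms at the same place in many cells gives a tall pile in every library that is deep enough, whereas a break at a scattered position contributes few reads. Known sites of frequent breakage include promoters, where topoisomerase II cuts DNA to release torsion, and very long genes.

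A private region could be seen in sequence where its peak lay at an annotated gene start. The lines below give the 250 bases upstream of the start (RefSeq, GRCm38.p6, the mm10 assembly), 5′ to 3′ on the strand of the gene. Capitals mark the bases that the private peak covered. Shown are the sequences under the strongest private peak that covered 100 or more of these bases in each list, followed by the next 3 of WT 3, the list with the highest share of private peaks at starts.
Aimp1: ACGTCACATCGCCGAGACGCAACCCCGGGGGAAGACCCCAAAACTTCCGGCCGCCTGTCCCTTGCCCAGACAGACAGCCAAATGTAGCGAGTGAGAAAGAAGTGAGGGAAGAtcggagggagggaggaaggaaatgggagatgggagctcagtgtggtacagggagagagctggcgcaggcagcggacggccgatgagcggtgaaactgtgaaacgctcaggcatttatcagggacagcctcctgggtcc
Ctns: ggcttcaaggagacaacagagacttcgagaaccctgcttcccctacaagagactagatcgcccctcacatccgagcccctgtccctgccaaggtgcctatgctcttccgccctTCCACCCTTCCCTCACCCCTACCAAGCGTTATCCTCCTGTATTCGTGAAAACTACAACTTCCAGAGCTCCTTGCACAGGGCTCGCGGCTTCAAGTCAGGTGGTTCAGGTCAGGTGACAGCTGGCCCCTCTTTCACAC
Cacnb3: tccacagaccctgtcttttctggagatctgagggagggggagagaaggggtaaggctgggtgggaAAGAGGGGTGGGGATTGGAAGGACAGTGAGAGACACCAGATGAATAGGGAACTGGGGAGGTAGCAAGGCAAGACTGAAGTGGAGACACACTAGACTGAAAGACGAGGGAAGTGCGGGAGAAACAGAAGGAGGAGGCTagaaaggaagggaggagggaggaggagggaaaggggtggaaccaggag
4931408C20Rik: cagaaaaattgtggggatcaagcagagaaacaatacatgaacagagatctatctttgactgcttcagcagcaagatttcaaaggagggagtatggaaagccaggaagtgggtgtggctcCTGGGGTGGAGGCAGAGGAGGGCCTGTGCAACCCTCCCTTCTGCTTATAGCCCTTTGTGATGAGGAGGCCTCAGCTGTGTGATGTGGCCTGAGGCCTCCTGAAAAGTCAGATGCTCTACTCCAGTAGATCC
Dlec1: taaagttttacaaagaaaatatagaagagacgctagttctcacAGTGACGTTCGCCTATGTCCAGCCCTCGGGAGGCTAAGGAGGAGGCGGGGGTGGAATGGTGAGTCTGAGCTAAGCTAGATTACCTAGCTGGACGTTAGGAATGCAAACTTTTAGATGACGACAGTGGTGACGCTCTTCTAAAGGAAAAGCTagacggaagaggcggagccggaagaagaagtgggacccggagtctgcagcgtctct
Tbx10: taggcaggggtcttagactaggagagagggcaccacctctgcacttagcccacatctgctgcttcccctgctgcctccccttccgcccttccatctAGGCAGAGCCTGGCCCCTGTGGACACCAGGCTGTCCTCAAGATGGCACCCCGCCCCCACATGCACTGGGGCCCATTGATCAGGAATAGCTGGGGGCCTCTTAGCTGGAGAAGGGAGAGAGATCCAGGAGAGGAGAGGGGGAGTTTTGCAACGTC
Plin4: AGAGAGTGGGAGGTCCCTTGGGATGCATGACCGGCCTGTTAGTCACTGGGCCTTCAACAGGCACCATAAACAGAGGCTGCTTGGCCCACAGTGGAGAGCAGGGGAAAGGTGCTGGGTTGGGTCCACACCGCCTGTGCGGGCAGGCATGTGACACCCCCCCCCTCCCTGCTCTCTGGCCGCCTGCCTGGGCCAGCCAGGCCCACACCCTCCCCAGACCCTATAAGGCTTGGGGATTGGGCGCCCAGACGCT
C8g: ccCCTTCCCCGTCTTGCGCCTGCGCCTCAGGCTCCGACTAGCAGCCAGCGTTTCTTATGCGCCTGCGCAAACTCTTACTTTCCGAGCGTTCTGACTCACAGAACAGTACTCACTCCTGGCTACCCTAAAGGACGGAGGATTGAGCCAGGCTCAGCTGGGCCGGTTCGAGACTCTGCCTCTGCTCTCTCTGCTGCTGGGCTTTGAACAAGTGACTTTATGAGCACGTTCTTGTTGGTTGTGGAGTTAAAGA
Gadd45b: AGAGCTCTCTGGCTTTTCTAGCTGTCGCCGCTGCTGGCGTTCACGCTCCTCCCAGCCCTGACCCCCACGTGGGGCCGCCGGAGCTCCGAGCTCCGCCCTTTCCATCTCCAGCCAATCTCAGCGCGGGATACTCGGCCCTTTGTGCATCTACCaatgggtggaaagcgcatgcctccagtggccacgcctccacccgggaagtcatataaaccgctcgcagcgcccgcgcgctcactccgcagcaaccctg

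Aimp1, which encodes a protein of the aminoacyl-tRNA synthetase complex, had its private peak in cKO 1 at chr3:132684018-132684156, with a fold over background of 29.0. The start nearest to the centre of that peak is that of Tbck, on the other strand at −57 bp; the sequence printed is the one upstream of Aimp1. Ctns, the gene of the lysosomal cystine transporter, had its peak in cKO 2 at chr11:73198988-73199156 with a fold of 9.35. Cacnb3, which encodes a beta subunit of voltage-gated calcium channels, had its peak in cKO 3 at chr15:98632143-98632279 with a fold of 11.8. In the WT lists the strongest such peaks lay at 4931408C20Rik in WT 1 (chr1:26687381-26687591, fold 6.73), at Dlec1 in WT 2 (chr9:119102302-119102452, fold 10.6) and at Tbx10, a T-box transcription factor gene, in WT 3 (chr19:3992598-3992786, fold 22.9). The next 3 of WT 3 lay at Plin4, which encodes a lipid droplet coat protein, at C8g, which encodes a chain of complement component C8, and at Gadd45b, a gene induced by growth arrest and DNA damage. Their folds were 9.64, 9.39 and 9.39. Each of these 9 regions had a peak in 1 list and none in the other 5.

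The private share of a list rose with its length among the cKO lists, but did not follow length among the WT lists. On chromosomes 1 to 19 there were 28445, 12808 and 21118 peaks in the cKO lists, and 1238, 14881 and 7790 in the WT lists. Private regions numbered 11393, 2065 and 5607 in the 3 cKO lists, and 347, 2702 and 2819 in the 3 WT lists. They made up 40.1%, 16.1% and 26.6% of the regions in the cKO lists, against 28.1%, 18.2% and 36.2% in the WT lists. The share averaged 27.6 ± 12.0% over the cKO lists and 27.5 ± 9.04% over the WT lists (SD, n = 3 each), and the 3 WT shares lay within the range of the cKO shares. cKO 1 alone supplied 45.7% of all private regions and cKO 3 another 22.5%, whereas WT 1 supplied 1.39%. The highest private shares, 40.1% and 36.2%, were those of cKO 1 and WT 3, the lists whose peak names carry the same prefix.

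**Figure D1:**
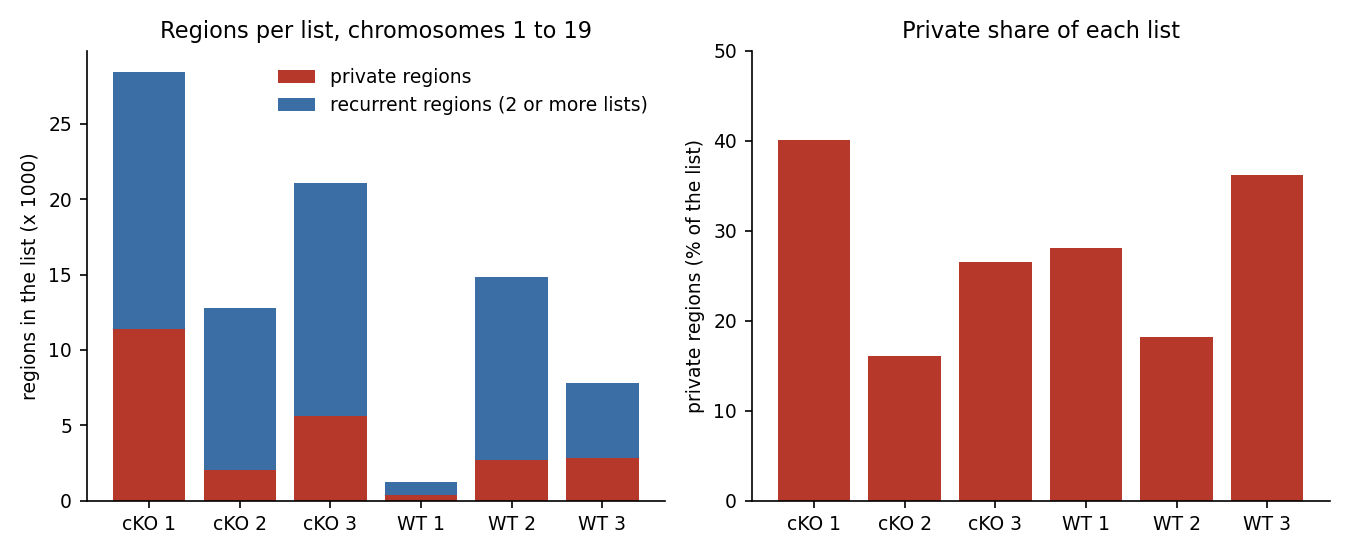
Left, regions per list, in units of 1000 regions, split into private (red) and recurrent (blue); right, the private percent of each list, with the 3 cKO lists left of the 3 WT lists. Private regions numbered 11393 in cKO 1 and 347 in WT 1, while the share ran between 16.1% in cKO 2 and 40.1% in cKO 1.

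Leaving out the list labelled cKO 1 turned regions that it had shared with 1 other list into private ones. The 5 remaining lists then had 19031 private regions. cKO 2 and cKO 3 had 2841 and 9052, which was 22.2% and 42.9% of their peaks. WT 1, WT 2 and WT 3 had 356, 3888 and 2894, or 28.8%, 26.1% and 37.2% of their peaks. The count of cKO 3 moved most, because 3445 regions had peaks in cKO 1 and cKO 3 and in no other list.

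Private peaks were weak peaks of their own list. Fold here is the authors' ratio of a peak to the background of its library, and since the peak calling sets both the fold and the membership, the values below are a description without a test. The median fold of private peaks was 8.99, 5.26 and 5.24 in the cKO lists, and 6.31, 5.88 and 5.34 in the WT lists. Recurrent peaks of the same lists had medians of 22.9, 19.2 and 17.6 in the cKO lists and 10.3, 16.2 and 14.4 in the WT lists. The private median was thus 0.274 to 0.392 of the recurrent median in the cKO lists, and 0.362 to 0.611 in the WT lists, with WT 1 the highest. Just outside the rule, regions with peaks in exactly 2 lists lay between: their median folds were 15.0, 8.54 and 10.4 in the cKO lists, and 7.28, 8.82 and 6.69 in the WT lists.

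Sorting each list by fold showed how private peaks thinned out with strength. The peaks of each list were split into 10 bins of equal size by fold. In the weakest bin, 88.8%, 81.2% and 89.9% were private in the cKO lists, and 58.1%, 73.3% and 89.2% in the WT lists. In the strongest bin, 0.387% were private in cKO 1, none in cKO 2 and 0.0473% in cKO 3, against none in WT 1, 0.269% in WT 2 and 0.128% in WT 3. In bin 5, counted from the weakest, the lists differed widely, with 43.8% private in cKO 1 but 1.64% in cKO 2, and 29.8% in WT 1 and 36.6% in WT 3. Private peaks above the recurrent median of their list numbered 498 in cKO 1, 6 in cKO 2 and 63 in cKO 3, and 12 in WT 1, 86 in WT 2 and 5 in WT 3. They were 4.37% of the private peaks in cKO 1 and 3.46% or less in each other list.

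**Figure D2:**
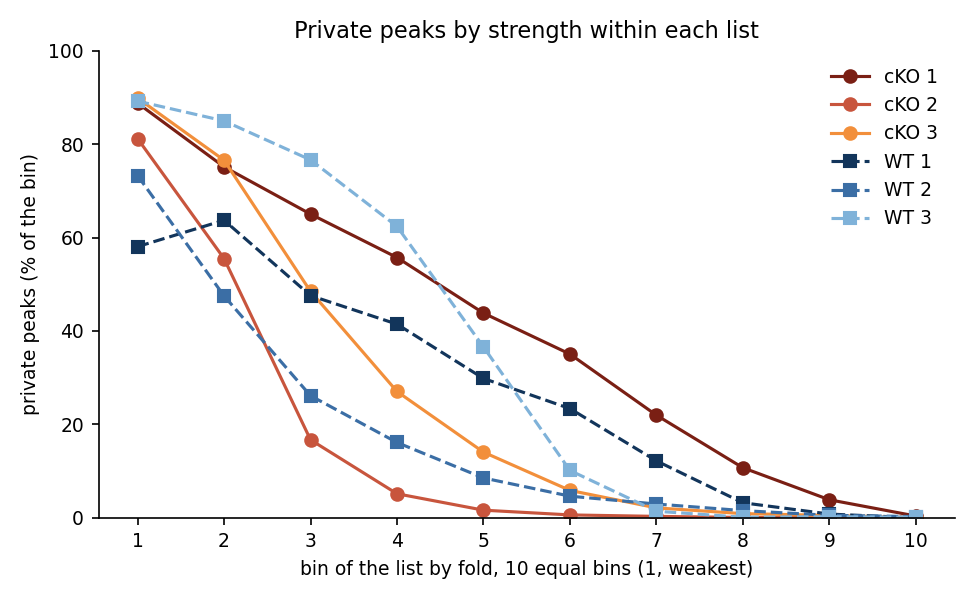
Percent of peaks that were private (vertical axis) in each of 10 bins of a list by fold (horizontal axis, weakest at 1), with cKO lists as solid lines and WT lists as dashed lines. The share was 58.1% to 89.9% in the weakest bin and 0.387% or less in the strongest, and the line of cKO 1 lies above the other 5 in bins 6 to 10.

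The same weakness can be read in reads. The deposited fold and p are those of (reads + 1)/(background + 1) and of a Poisson tail, the form used by MACS-type callers, and solving both for whole reads gave a solution within 0.01 on the −log10 p scale for 99.99% of the peaks. If that form holds, private peaks had a median of 13, 8 and 7 reads at the summit in the cKO lists, and 13, 9 and 8 in the WT lists. Recurrent peaks had medians of 40, 37 and 29 reads in the cKO lists and 24, 28 and 24 in the WT lists. The lowest peak of any kind held 5, 6 and 5 reads in the cKO lists and 8, 6 and 6 in the WT lists, so the middle private peak of 4 lists lay within 3 reads of its list's lowest. WT 1, the shortest list, accepted no peak under 8 reads. In the other lists 22.7% (cKO 1), 37.8% (cKO 2), 54.5% (cKO 3), 27.5% (WT 2) and 44.9% (WT 3) of the private peaks held fewer than that.

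**Figure D3:**
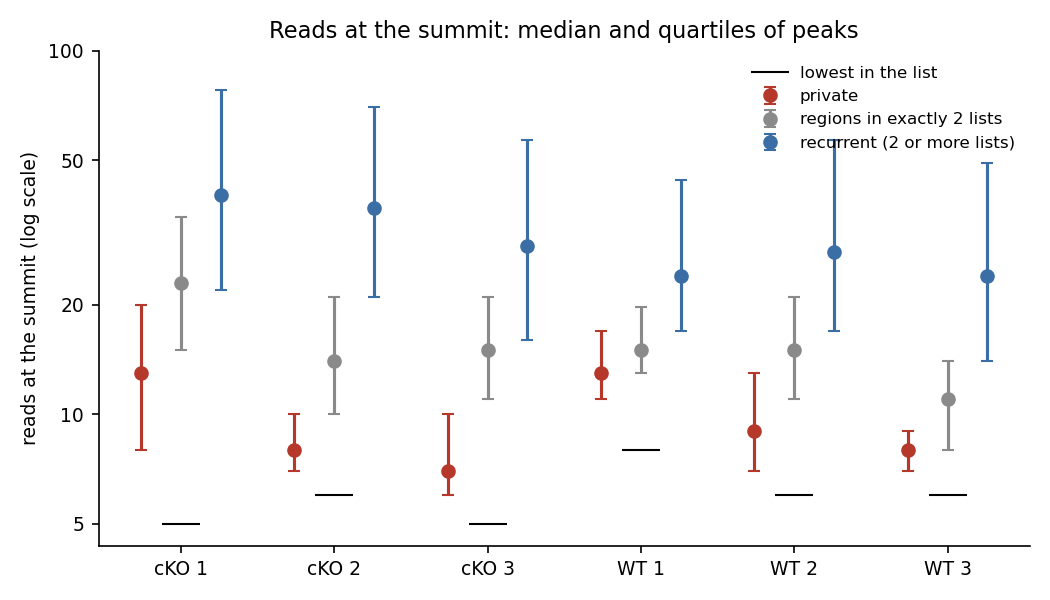
Reads at the summit on a log scale, as the median (point) and quartiles (bars) of private peaks (red), peaks of regions in exactly 2 lists (grey) and recurrent peaks (blue), with the lowest peak of each list as a black line. Private medians were 7 to 13 reads and recurrent medians 24 to 40.

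Background differed between libraries. The most common local background of the peaks of a list was 0.446, 0.711 and 0.528 reads per window in the cKO lists, and 1.05, 0.700 and 0.597 in the WT lists. Divided by the shortest peak of the list, this came to 3.52, 5.08 and 4.19 reads per kb in the cKO lists and 7.66, 5.69 and 4.24 in the WT lists. Private peaks mostly stood on this common background: 60.9%, 75.01% and 85.9% of them in the cKO lists, and 60.2%, 73.0% and 67.2% in the WT lists, did so. Of the recurrent peaks 17.0%, 24.7% and 31.1% did in the cKO lists and 38.7%, 38.0% and 31.1% in the WT lists. The longest list, cKO 1, had the lowest background and the shortest, WT 1, the highest. One read was worth 0.691 of fold at this background in cKO 1 and 0.488 in WT 1, so equal folds stand for different numbers of reads between lists. No read totals were used here, and the part of background and depth in the private shares was not tested.

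Private peaks were also narrow. The median width was 154, 164 and 148 bp for private peaks of the cKO lists, and 160, 142 and 168 bp for those of the WT lists. Recurrent peaks measured 192, 177 and 174 bp in the cKO lists and 169, 167 and 187 bp in the WT lists. The private median was 9 to 38 bp shorter in each list. The widest private peak spanned 543 bp, in cKO 2, while recurrent peaks reached 4398 bp, in WT 1. The narrowest peaks were 126 to 140 bp in the cKO lists and 123 to 141 bp in the WT lists.

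The spacing of private regions is given as a description, since the rule itself removes overlap with other lists and sparse regions rarely have near neighbours. The nearest peak of another list was a median of 26.1, 20.01 and 22.5 kb away in the cKO lists, and 14.4, 19.8 and 20.9 kb away in the WT lists. Peaks of another list lay close to a small share of them: 2.27% to 4.16% in the cKO lists and 3.15% to 8.36% in the WT lists had another list's peak within 1000 bp. No other private region of the same list lay within 10 kb of 92.2% of the private regions in cKO 1 and 95.5% to 97.3% of those in each other list. With gaps of up to 10 kb, 24 runs of 3 private regions were found and none was longer. The widest, of cKO 3, spanned 19.996 kb on chromosome 8 (chr8:20564420-20584415, folds 4.08 to 7.54). The next, both of cKO 1, spanned 18.7 kb on chromosome 11 (chr11:95004875-95023538, folds 10.4 to 21.2) and 18.3 kb on chromosome 4 (chr4:130945209-130963552, folds 6.22 to 13.1).

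A small number of private peaks were strong, and several lay in genes of known function. The strongest of cKO 3 (chr9:54230621-54230751) had a fold of 48.2 and 186 reads, stood above 97.3% of its list, and lay in Cyp19a1, the gene of aromatase, which makes oestrogens. The strongest of cKO 1 (chr13:47855406-47855586) had a fold of 47.1 and 164 reads and lay within 1000 bp of no protein-coding gene. The next in cKO 1 lay in Mndal, a gene of the interferon-inducible p200 family, with a fold of 44.4, and in Slit3, which encodes a secreted guidance ligand of Robo receptors, with a fold of 42.4. Actn2, the gene of the sarcomeric alpha-actinin that anchors actin at the Z-disc, held the next strongest of cKO 3 (chr13:12280120-12280263, fold 33.0, 86 reads). The one after it lay outside genes (chr4:100771487-100771679, fold 32.2). In cKO 2 the strongest reached a fold of 24.7 at chr13:106939121-106939266, outside genes, and Cntnap2, which encodes a neurexin-family adhesion protein, held the next at 23.4, followed by one outside genes on chromosome 3 at 22.4.

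The WT lists had strong private peaks as well. WT 2 had 3 outside genes, with folds of 42.8 at chr2:84267205-84267456, 40.3 at chr8:15454039-15454212 and 37.7 at chr16:38853447-38853699. The last of these held 208 reads, the most among the regions named here, over a local background of 4.55 reads. The strongest of WT 3 lay in Hs6st3, which encodes a heparan sulfate sulfotransferase, with a fold of 31.4 and 77 reads, followed by Immp2l, which encodes a subunit of the mitochondrial inner membrane protease, at 25.6. The strongest of WT 1 lay in Abca17, an ABC transporter gene, with a fold of 15.9 and 34 reads, and the next 2 lay outside genes at 14.2 and 12.4. The peak at the start of Tbx10, shown above, was the last of the 3 strongest of WT 3. None of these regions had a peak in any other list, although those of cKO 1, cKO 3 and WT 2 stood above 86.5% to 97.3% of the peaks of their list.

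Regions in exactly 2 lists, just outside the rule, mostly involved cKO 1. Of the 6686 regions in exactly 2 lists, 4420 (66.1%) had both peaks in cKO lists, 2061 (30.8%) had 1 in each genotype, and 205 (3.07%) had both in WT lists. cKO 1 and cKO 3, the longest lists, shared 3445 of them, or 51.5%, and cKO 1 and WT 2 shared 1184, or 17.7%. cKO 1 and WT 3, whose names carry the same prefix, shared 73, or 1.09%. cKO 2 and cKO 3 shared 200, or 2.99%. With membership rebuilt without the list labelled cKO 1, 1643 of 5144 regions in exactly 2 lists (31.9%) had both peaks in cKO lists. Without cKO 3 the number was 2218 of 6191 (35.8%). Without cKO 2, WT 1, WT 2 or WT 3 the share was 65.0%, 66.8%, 92.1% or 68.5%. Leaving out a cKO list also leaves fewer pairs of cKO lists that could share a region. Long lists have more peaks to share, and these counts were not adjusted for length.

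The share of peaks at protein-coding genes was lower for private than for recurrent peaks in all 6 lists. Given the result at gene starts, the adjusted test could not reach 0.05 for this measure, so it decides nothing. Taken within bins of each list by fold, the difference averaged 2.46 points as planned. It averaged 0.0454 points in a setting chosen after the data were seen. A peak was counted at a gene when it overlapped the gene's span extended by 1000 bp on both sides. These extended spans cover 42.3% of chromosomes 1 to 19. Of the private peaks, 43.9%, 31.5% and 38.9% were at genes in the cKO lists, and 25.4%, 38.9% and 38.0% in the WT lists. Of the recurrent peaks, 46.1%, 43.4% and 44.9% were at genes in the cKO lists and 32.5%, 46.1% and 43.4% in the WT lists. The differences, private minus recurrent, were −2.20, −11.9 and −5.99 percentage points in the cKO lists and −7.19, −7.22 and −5.36 in the WT lists. The mean was −6.64 ± 3.16 points (SD, n = 6 lists). A two-sided exact sign-flip permutation test over the 6 lists gave p = 0.03125, the smallest that its 64 assignments allow. Benjamini-Hochberg adjustment of this test over the measures of genes and of gene starts gave 0.0625. Since the p at gene starts was above 0.05, no smaller adjusted p was possible. Recurrent peaks are shared between lists, so the 6 differences are not fully independent. Without the list labelled cKO 1 the mean was −5.36 ± 2.84 points, below 0 in 5 of 5 lists. The adjusted p of the same exact test was 0.125, again the smallest possible beside the result at starts.

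The gene share changed with peak strength. Each list was also split into 5 bins of equal size by fold. Over all bins, as planned, the mean difference was 2.46 ± 10.1 points (SD, n = 6), with few private peaks in some bins. Within bins that held 20 or more peaks of each kind, a setting chosen after the data were seen, the mean difference was 0.0454 ± 2.63 points (SD, n = 6), with 3 lists above 0 and 3 below. Folds can still differ between private and recurrent peaks inside a bin. In the weakest bin, private against recurrent shares were 39.9% and 39.0% in cKO 1, 30.8% and 30.9% in cKO 2, and 38.2% and 31.9% in cKO 3. The same shares were 31.1% and 19.6% in WT 1, 37.8% and 36.6% in WT 2, and 38.2% and 28.9% in WT 3. In the next bin they were 46.1% and 44.5% in cKO 1, 35% and 42.0% in cKO 2, and 38.8% and 43.2% in cKO 3. For the WT lists that bin held 20% and 27.7% in WT 1, 41.0% and 45.3% in WT 2, and 37.2% and 34.9% in WT 3. Recurrent peaks of the strongest bin were at genes in 45.6% to 47.8% of cases in the cKO lists and 41.7% to 49.4% in the WT lists. With lists shortened to 1238 peaks each the mean difference turned to 6.08 ± 12.5 points (adjusted exact p = 0.531). The lists then differed widely, with 26.6 points in cKO 3 on 22 private regions and −12.1 points in WT 1 on 820 of all 1269, and without the value of cKO 3 the mean was 1.98 points.

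The genotypes did not differ detectably in this placement. Of the private peaks, 38.1 ± 6.21% were at genes over the cKO lists and 34.1 ± 7.58% over the WT lists (SD, n = 3 each). The difference of 4.01 points gave p = 0.5 in a two-sided exact permutation test, whose 20 assignments allow no p under 0.1. The private-minus-recurrent difference averaged −6.69 ± 4.88 points in cKO and −6.59 ± 1.06 in WT, a difference of −0.0995 points (p = 1 by the same exact test). Without the list labelled cKO 1 that difference was −0.918 points (exact permutation p = 0.8). Groups of 3 cannot reach 0.05 with this test.

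**Figure D4:**
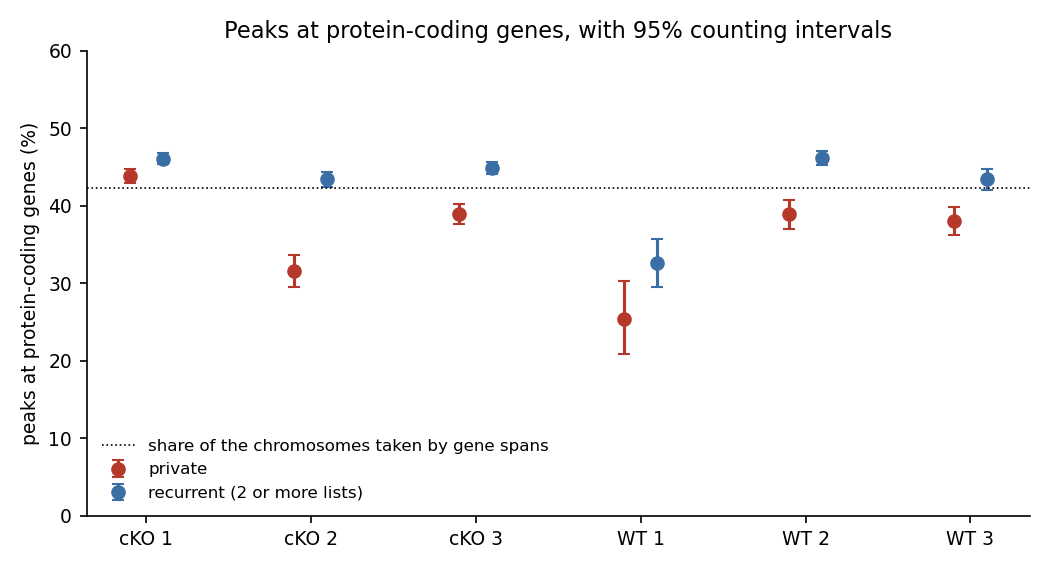
Percent of private (red) and recurrent (blue) peaks at protein-coding genes in each list, with exact 95% binomial intervals as bars and the share of the chromosomes in gene spans as a dotted line. The red point lies under the blue one in all 6 lists, by 2.20 to 11.9 points.

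At gene starts, WT 3 stood apart from the other 5 lists when the full lists were used. Peak centres were measured to the nearest of 20084 annotated starts, which belong to 16456 of the 20661 protein-coding genes, and chromosome 18 is left out because its starts were not used here. Within 1000 bp of a start lay 7.39% of the private peaks of WT 3, 201 of 2720 (exact 95% interval 6.43% to 8.44%). Of its recurrent peaks, 147 of 4790, or 3.07% (2.60% to 3.60%), did so. These intervals cover counting error only. In the other lists the private share was 2.44% in cKO 1, 0.903% in cKO 2, 1.03% in cKO 3, 0.302% in WT 1 and 1.54% in WT 2. The recurrent share there was 2.51%, 2.09% and 1.95% in the cKO lists, and 0.466% and 2.83% in WT 1 and WT 2.

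Over the 6 lists the private-minus-recurrent difference at starts averaged 0.115 ± 2.12 points, with 5 lists below 0 and WT 3 at 4.32 points above (exact sign-flip permutation, p = 1). Without WT 3 the mean was −0.741 ± 0.560 points, below 0 in 5 of 5 lists, and p = 0.0625, the smallest that an exact test over 5 lists can give. With the full lists the WT 3 excess is thus a property of 1 library with no replicate to test it against. Shortened to 1238 peaks each, a setting added for starts after seeing the data, WT 2 also had an excess. The difference was then 4.44 points in WT 2 on 42 private regions and 3.65 in WT 3 on 113. It was 0.196 in cKO 1 and below 0 in the remaining lists. Of the private peaks, 1.46 ± 0.853% were at starts over the cKO lists and 3.08 ± 3.79% over the WT lists (SD, n = 3 each; exact permutation p = 0.8). Of the 16456 genes with an annotated start, a private peak lay within 1000 bp of a start in 264 (1.6%), 18 (0.109%) and 56 (0.34%) for the cKO lists, and in 1 (0.00608%), 40 (0.243%) and 200 (1.22%) for the WT lists.

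The start peaks private to WT 3 were mostly upstream of the start, and about as weak as all private peaks of that list. Of the 201, 150 (74.6%) had their centre upstream of the start, and the median position was −95 bp. Within 250 bp of a start were 148 of them, 112 upstream and 36 downstream. In cKO 1, the list with the most start peaks, 128 of 268 private ones (47.8%) were upstream, with a median position of 21.5 bp downstream. The 18 private start peaks of cKO 2 were 66.7% upstream with a median of −162 bp, and the 56 of cKO 3 were 51.8% upstream with a median of −124.5 bp. In WT 2, 47.5% of 40 were upstream, with a median of 27 bp downstream. The recurrent start peaks of WT 3 were 55.8% upstream, with a median of −48 bp. Private start peaks of cKO 1 had a median fold of 9.68 and 14 reads at the summit, and those of WT 3 a median fold of 5.63 and 8 reads. All private peaks had medians of 8.99 and 13 reads in cKO 1, and of 5.34 and 8 reads in WT 3. The median fold of private start peaks was 4.68 in cKO 2, 5.89 in cKO 3 and 6.47 in WT 2. Median width was 189 bp for private start peaks of WT 3, against 168 bp for all its private peaks. The excess was present in each of the 3 weaker bins of 5 of the WT 3 list: private and recurrent shares at starts were 5.96% and 1.03% in the weakest, 8.81% and 1.53% in the next, and 8.22% and 2.44% in the middle one.

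**Figure D5:**
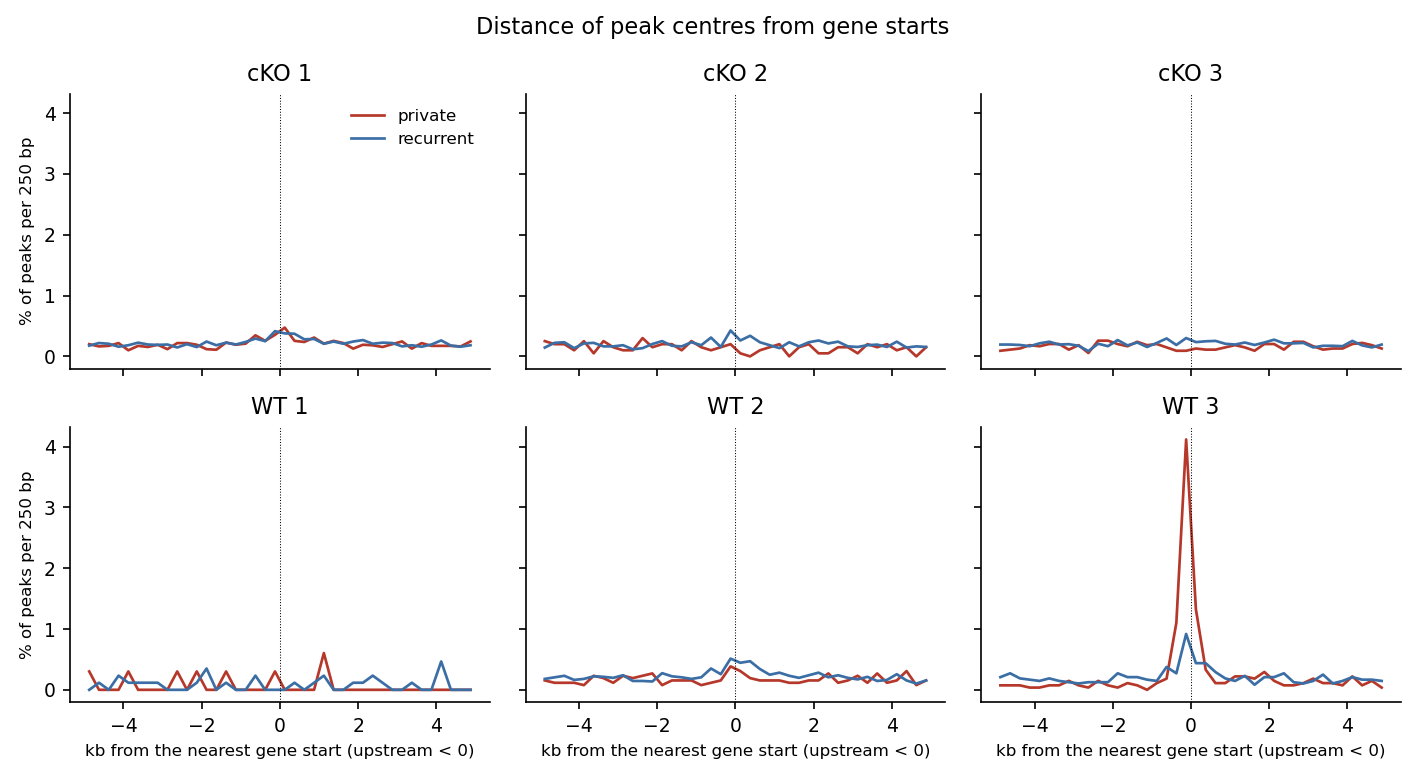
Percent of private (red) and recurrent (blue) peaks per 250 bp of distance from the nearest gene start, in kb with upstream negative, for the 3 cKO lists (top) and the 3 WT lists (bottom). The bin just upstream of the start holds 4.12% of the private peaks of WT 3 against 0.919% of its recurrent peaks, and 0.0923% to 0.385% of the private peaks of each other list.

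A few genes show what these start peaks looked like; they were picked after their values were seen, by their fold or by a gene list. Park7, which encodes the oxidative-stress protein DJ-1, had a peak of fold 11.3 and 17 reads private to WT 3. Cacna1c, which encodes the pore subunit of the cardiac L-type calcium channel, had 1 of fold 7.51 and 11 reads at −227 bp, also private to WT 3. Idh2, the gene of mitochondrial isocitrate dehydrogenase, had 1 of fold 5.01 and 7 reads at −207 bp in the same list. Itpr2, the gene of an IP3 receptor that releases calcium, had 1 at 60 bp downstream that was private to WT 2, with a fold of 6.47 and 10 reads. In cKO 1 the strongest start peaks were those of Slit3 at 422 bp downstream (fold 42.4) and of Apom, which encodes an apolipoprotein, at 997 bp downstream (fold 33.3).

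The start windows that private peaks of WT 3 touched were rich in G and C. Windows ran from 250 bases before to 50 after a start, and overlapping windows of alternative starts share bases. Private peaks of cKO 1 touched 89 windows, with a median GC content of 61.3% and a median of 20 CpG dinucleotides. Those of WT 3 touched 204 windows, with medians of 65.0% and 26. Recurrent peaks of cKO 1 touched 151 windows, with 60.7% and 19, and those of WT 3 touched 75, with 64% and 23. Over all 20062 windows the medians were 57% and 14.

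Promoter motifs were searched on both strands of the same windows as GGGCGG (the GC box, recognised by Sp1-family factors), CCAAT (recognised by NF-Y), CCGGAAG (recognised by ETS factors), TGACGTC (recognised by CREB/ATF factors) and TATAAA (the TATA box). The 5 words do not contain one another. Of the windows with a private peak of cKO 1, 61.8% held the GC box, 34.8% CCAAT, 14.6% CCGGAAG, 6.74% TGACGTC and 6.74% TATAAA. Of those with a private peak of WT 3, 78.9% held the GC box, 57.4% CCAAT, 19.6% CCGGAAG, 8.82% TGACGTC and 4.90% TATAAA. Over all windows the shares were 47.0%, 38.1%, 11.9%, 3.92% and 12.7% in the same order. Windows with a recurrent WT 3 peak held the GC box in 69.3% and CCAAT in 58.7% of cases. The WT 3 windows of both kinds thus differed from the average window in the same direction for these 2 words. So did windows with a recurrent peak of cKO 1, cKO 2, cKO 3 or WT 2. They held the GC box in 57.0%, 54.9%, 52.8% and 60.2%, and CCAAT in 41.7%, 52.4%, 48.3% and 42.9%. The 19 windows with a private WT 2 peak held each word in 68.4%. Private peaks of cKO 2 and cKO 3 touched 8 and 12 windows, with the GC box in 75% and 41.7% and CCAAT in 25% and 58.3%. Higher shares of these words were not particular to WT 3. Among the printed upstream sequences, those of Tbx10 and Gadd45b hold a GC box within the capitals, and those of Cacnb3, Plin4 and Gadd45b hold CCAAT there. A match describes the letters only.

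Private regions reached many genes, mostly once. Of 20661 protein-coding genes, 5511 (26.7%) had a private region of 1 or more lists, 5061 (24.5%) had a recurrent region, and 3034 (14.7%) had private but no recurrent regions. By list, genes with a private region numbered 3514 (17%), 568 (2.75%) and 1717 (8.31%) in the cKO lists, and 80 (0.387%), 922 (4.46%) and 977 (4.73%) in the WT lists. Only 57 genes (0.276%) had private regions of 5 or more lists, and 12 (0.0581%) had them in all 6. The number of lists ran with gene length. Genes with no private region had a median length of 11.9 kb, those with private regions of 1 list 41.7 kb, of 2 lists 116 kb, and of 6 lists 1099 kb. Per Mb of gene span over all genes there were 9.90 private regions and 8.30 recurrent regions.

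The genes with the most private regions were very long. Cntnap2 (chr6:45060061-47301393, 2241 kb) had 36, of which 13, 5 and 6 came from the cKO lists, and 0, 3 and 9 from the WT lists. It had 13 recurrent regions. Csmd1, which encodes a membrane protein with complement-control domains, and Lrp1b, which encodes an endocytic lipoprotein receptor, had 25 each. Csmd3, a relative of Csmd1, had 23 private and 5 recurrent regions. Macrod2, which encodes an ADP-ribose hydrolase, was the exception among these genes, with 22 private and 26 recurrent regions.

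Among the 10 genes with the most private regions were also Sgcz, which encodes zeta-sarcoglycan of the dystrophin complex, with 21, and Ptprd, Cdh18 and Nrxn3, genes of cell adhesion and synapse formation, with 20 each. Sgcz, Ptprd, Pde4d and Adgrl3 were among the genes with private regions of all 6 lists that had the most of them. Pde4d, which encodes a phosphodiesterase that degrades cyclic AMP and is active in heart muscle, had 19 private and 8 recurrent regions. Adgrl3, which encodes a latrophilin adhesion receptor, had 18 private and 3 recurrent regions. The densities of private regions among the genes named here ran between 8.80 per Mb in Ptprd and 22.2 per Mb in Adgrl3, against 9.90 over all gene spans. Since genes were ranked by number, these values describe the ranking.

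Lmna and Myh6, the targeted gene and the source of the Cre promoter, had 1 private region between them. Lmna (chr3:88481148-88509932) had 1 private region, in cKO 1, and no recurrent one. Myh6 (chr14:54941921-54968017) had none, and its 1 recurrent region had peaks in cKO 1 and cKO 3. Neither count bears on whether Lmna was deleted.

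Genes of contraction and of calcium handling held both private and recurrent regions. These gene lists were chosen with earlier results of the data known, and their shares are set beside the 26.7% of all genes with a private region and the 24.5% with a recurrent one. The difference between private and recurrent counts of a list was not tested. In the contractile apparatus 8 of 23 genes (34.8%) had a private region and 14 had a recurrent one. Ttn, the gene of the giant sarcomere spring titin, had 7 private regions (4 in cKO 1, 2 in cKO 3, 1 in WT 3) and 6 recurrent. Actn2 had 4, with 2 each in cKO 1 and cKO 3, Nebl, which encodes the thin-filament protein nebulette, had 3, and Mybpc3, the gene of cardiac myosin-binding protein C, had 1, in cKO 3. Among ion channels and calcium handling 11 of 21 genes (52.4%) had a private region and 15 a recurrent one, at a median gene length of 220 kb. Ryr2, the gene of the calcium release channel of the sarcoplasmic reticulum, had 7 private and 7 recurrent regions. Cacna1c had 6 private regions, Cacnb2, which encodes a calcium channel beta subunit, had 5, and Itpr2 had 4.

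In the DNA damage response 9 of 24 genes (37.5%) had a private region and 5 a recurrent one. The median length of these genes was 52.4 kb, against 17.5 kb for all genes. Their private density was 8.92 per Mb, against 9.90 over all gene spans. Xrcc4, a ligase cofactor of end joining, had 5 private regions (2 in cKO 1, 2 in cKO 3, 1 in WT 3). Atm, the kinase that signals double-strand breaks, had 2, in WT 2 and WT 3. Atr, a kinase activated by single-stranded DNA, had 1, in cKO 3, and Brca1, a recombination factor, had 1, in WT 3. Of 13 genes of the nuclear lamina and the LINC complex, which ties the lamina to the cytoskeleton, 4 (30.8%) had a private region. Syne2, which encodes nesprin-2, had 4 private regions (1, 2 and 1 in the cKO lists, and 0 in each WT list) and no recurrent one. Syne2 spans 293 kb, and the cKO lists held 19065 of all 24933 private regions, so this split was not read as a genotype difference. Syne1, which encodes nesprin-1, had 7 private regions (4 in cKO 1, 2 in cKO 3, 1 in WT 2) and 9 recurrent ones, and Syne3, which encodes nesprin-3, had 1, in cKO 3.

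In fatty acid oxidation and mitochondria 8 of 22 genes (36.4%) had a private region. Ppargc1a, which encodes the coactivator PGC-1alpha of mitochondrial genes, had 7, and Cd36, a fatty acid transporter gene, and Ogdh, which encodes a dehydrogenase of the citric acid cycle, had 2 each. Acadl, which encodes a long-chain acyl-CoA dehydrogenase, had 1. In matrix and TGF-beta genes the number was 5 of 16 (31.3%), with 3 private regions in Fn1, the fibronectin gene, 2 in Tgfb1, and 1 each in Postn, the periostin gene, and Smad3, a TGF-beta signal transducer. Housekeeping genes, with a median length of 5.13 kb, had a private region in 4 of 14 (28.6%) and a recurrent one in 0 of 14. The private share lies near the 26.7% of all genes, and 24.5% of all genes had a recurrent region. Among them were Gapdh with 1, in cKO 1, and Actb and Polr2a with 1 each, in WT 3. The 28 long, mostly neuronal genes all had both private and recurrent regions; they were listed for their length, and their private density was 11.4 per Mb against 9.90 over all genes.

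Marker genes of other heart cells held private regions too, mostly at shares near that of all genes. A private region was found at 6 of 10 endothelial markers (60%) and at 3 of 9 markers of smooth muscle or pericytes (33.3%). The number was 3 of 10 each for fibroblasts and immune cells (30%), beside 26.7% of all genes. A recurrent region was found at 3 endothelial, 2 smooth muscle or pericyte, 3 fibroblast and 1 immune cell marker, beside 24.5% of all genes. Endothelial markers had a median length of 53.7 kb, against 17.5 kb for all genes, and the shares were not adjusted for length. Flt1, the gene of a VEGF receptor of endothelium, had 5 private regions (3 in cKO 1, 1 in cKO 3, 1 in WT 2), and Emcn, Kdr and Pecam1, also genes of endothelial surface proteins, had 1 each. Ddr2, a collagen receptor gene of fibroblasts, had 4, 2 each in cKO 1 and cKO 3. Myh11, the smooth muscle myosin gene, had 2, in cKO 1, and Csf1r, Cx3cr1 and Mrc1, genes of macrophages, had 1 each in a cKO list. A break in a marker gene does not measure how many cells of that type were present, and their part in the private regions was not tested.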

How the data were processed

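Analyses began from the deposited END-seq peak lists, 1 per library, called separately per the file headers and peak names. For the END-seq libraries the build is mm10, and FastQC, SEACR and DiffBind are named without versions or roles, per the submitters' processing notes. No aligner is named in what was used here. The authors' caller gave every peak a fold over background, a linear ratio, per the file headers. The deposited −log10 values of p and q and the deposited score come from the same caller. The deposited peaks all had a q of at most 0.01. Read totals were not used, so the relation of list length to depth was not tested. Background was 3.52 reads per kb in the longest list, cKO 1, and 7.66 in the shortest, WT 1. Regions without a called peak may still contain breaks.

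Libraries were grouped by the genotype in their titles. Members and gene lists were chosen with earlier results of these data known. Fold, width and private share are described without tests because they chose the members or come from the same calling. Gene spans, gene starts and start windows came from RefSeq tables of GRCm38.p6, the mm10 assembly. All coordinates are 1-based. Reads at the summit were solved from the deposited fold and −log10 p up to 12000 reads; 97.3% of the solved peaks had 1 solution. Shares at genes and at starts were compared within lists by exact sign-flip permutation and between genotypes by exact permutation, both two-sided, with 3 mice per genotype. Genes were named by rule: the 3 private regions of highest fold per list, the 10 genes with the most private regions, the 5 in the most lists, the 3 longest runs, up to 4 genes per gene list, and Lmna and Myh6; genes at starts were added after their values were seen. Some genes that meet this rule are not reported here. The planned GC comparison of peak sequences was not run, since no genome was used here. Scripts were tested on simulated data. Versions were scipy 1.17.1, pandas 2.3.3, numpy 2.4.6, matplotlib 3.10.9 and Python 3.11.15.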

Additional observations from a re-analysis of the deposited data

How the results depend on the processing

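Of 59 alternative values of tested results, 43 kept their direction, and none had a p at or under 0.05. The tests between genotypes, with the block and over 5 lists cannot reach that level. Over 6 lists the adjusted p at genes can reach it only where gene starts also do. The lack of such a p thus says nothing of stability. Of 48 alternative values without a test, 43 stayed within the range allowed for them. The share at genes, private minus recurrent, was −6.64 points and turned to 6.08 with lists of equal length (1238 peaks), to 2.46 within 5 bins by fold, some with under 20 private peaks, and to 0.0454 within the bins of 20 or more peaks of each kind, a setting added after seeing the data; the cause was not tested. Lists of equal length also moved the private regions to 1269, the genes with them to 403, the mean private share to 17.1 ± 24.5% and the mean log2 ratio of private to recurrent fold to −0.32. Fewer peaks enter by construction; the cause of the moved share and ratio was not tested. WT 1, which lost no peaks, held 820 of the 1269 regions and a share of 66.2%, and without its value the mean share was 7.25% and the mean log2 ratio −0.15. Both means without 1 list's value were added after seeing the data, as was the count of regions in exactly 2 lists without each list. A q of at most 0.00001 left 15450 private regions. The genotype difference in the gene share difference lay near 0 (−0.0995 points) and turned to 2.40 with that q, 11.5 with equal lengths, 0.366 with peaks within 1000 bp joined, 0.456 with chromosomes X and Y, 0.971 with recurrent meaning 3 or more lists, 0.210 with gene spans alone and 0.830 with all annotated genes. Leaving out 1 list at a time gave −7.59 to −5.36 points for the share at genes, −0.741 to 0.541 for the share at starts, −0.918 to 2.91 for the genotype difference at genes and −2.49 to 0.0316 for that at starts, 19031 to 24743 private regions, 4534 to 5534 genes, a mean private share of 27.1% to 31.8% and a log2 fold ratio of −1.57 to −1.34. The settings applied to gene starts were added after seeing the data.

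Whether replicate numbers pair the libraries was not tested. Deviations of same-numbered lists correlated at 0.172, 0.0346 and −0.0199 over regions, beside −0.184 to 0.119 for lists of other numbers. The value of 0.172, of cKO 1 and WT 1, was the highest. With the replicate number as a block the genotype differences were −0.0995 points at genes and −1.68 at starts, both with p = 1 by exact sign-flip permutation over 3 pairs, whose smallest p is 0.25, so the block could change no call. Peaks of 5 to 8 reads set the lower limit of what a list can hold, and read depth per library is unknown.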

Other observations

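Private shares varied between chromosomes within each list. Chromosome 14 had the highest mean private share over the 6 lists, 31.9 ± 9.35% (SD, n = 6), and the highest share within cKO 1 (43.3%), cKO 2 (22.6%), cKO 3 (30.8%) and WT 3 (42.9%). In WT 1 the highest was chromosome 8 at 41.3%, and in WT 2 chromosome 3 at 23.2%. Chromosomes 7 and 9 had the lowest means, 23.4 ± 10.04% and 23.6 ± 9.93%. These values are a description, and chromosome length, gene content and mappability were not compared with them.

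Genes with private peaks at their starts overlapped little between cKO 1 and WT 3, the lists with the most of them, at about the share over all genes. cKO 1 had 264 such genes and WT 3 had 200, and 3 were shared: D430042O09Rik, Mycbp and Zfyve27. That is 1.14% of the genes of cKO 1, beside 1.22% of all genes with an annotated start that had a private start peak of WT 3. It is 1.5% of the genes of WT 3, beside 1.6% of all genes for cKO 1. The rule also removes any site with peaks in 2 lists, so these counts are not a result about the members. The shared genes were named after their values were seen.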
